A study of Mus musculus with 20 samples.

Results

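The paternally methylated imprinting control regions are stretches of DNA that carry methyl groups on the copy inherited from the father and not on the copy inherited from the mother. Here they are 3 windows of the mouse mm9 build: H19 at chr7:149765000-149769500, the intergenic region of Meg3 at chr12:110764500-110769500, and Rasgrf1 at chr9:89766000-89776000. The windows were given by coordinate, and every CpG position inside them with at least 5 reads in a library was pooled for that library. They held 26 such positions, 3 in H19, 15 in Meg3 and 8 in Rasgrf1, of 2262552 positions with that depth anywhere in the series. On a grid of 100-bp tiles they touched 12 of 823580 tiles. Exon, intron and other annotation of mm9 was not used here.

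An imprinting control region sets which parental copy of the genes around it is used. In sperm development the 3 regions gain methylation, which the oocyte lacks, and the embryo has to keep that difference through the wave of demethylation that the rest of the paternal genome undergoes after fertilisation. The H19 region lies between Igf2 and H19, and methylation keeps the insulator protein CTCF from binding the paternal copy. The Meg3 region lies between Dlk1 and the non-coding RNA gene Meg3 and acts over that whole cluster, while the Rasgrf1 region lies upstream of Rasgrf1, a gene for a guanine nucleotide exchange factor of Ras.

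The data were 20 reduced representation bisulfite libraries in 10 groups of 2. Reduced representation reads only fragments near cuts of the enzyme MspI, and bisulfite reads 5-methylcytosine and 5-hydroxymethylcytosine alike. Pronuclei, the separate parental nuclei of the zygote, were taken from embryos made in vitro with sperm of C57BL/6J males and oocytes of superovulated females 7 to 10 weeks old. The females were WT (f/f) or CKO (Zp3-Cre, f/-), in which Cre acts in growing oocytes to remove Tet3, a dioxygenase that oxidises 5-methylcytosine, and the WT mothers are themselves homozygous for the floxed allele. Each genotype was cultured without drug (mock) or with aphidicolin, which inhibits DNA polymerases, at 3 µg/ml from 5 hours after fertilisation. Paternal and maternal pronuclei were separated by hand at 12 hours by size and distance from the polar body, and frozen at 13 hours. The sperm and oocyte libraries are labelled WT and mock. A library typically held about 20 pronuclei and took 21 PCR cycles, so many reads can descend from few DNA molecules. Whether replicate libraries stem from different animals, and whether paternal and maternal libraries share zygotes, is not given in the labels, so a spread between libraries may be technical.

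Libraries held 22431861 to 68056783 CpG calls, a call being 1 read at 1 CpG position. The windows were read far more thinly, with 25 to 190 calls per library in H19 (median 75), 20 to 672 in Meg3 (median 169.5) and 40 to 550 in Rasgrf1 (median 204). No position of the 26 reached 5 reads in all 20 libraries. The positions fell into 11 stretches read together on the same fragments, 2 in H19, 5 in Meg3 and 4 in Rasgrf1, numbered here along the chromosome. The covered part spanned 200 bp of H19, 2192 bp of Meg3 and 3703 bp of Rasgrf1. The 95% Wilson intervals were up to 23.8 percentage points wide in H19, 21.4 in Meg3 and 20.9 in Rasgrf1, and they cover counting error only. They take calls as independent, although positions of a stretch share reads, and so are too narrow. All 8 files of mock pronuclei list their chromosomes in sorted order, and 0 of 8 of aphidicolin pronuclei and 0 of 4 of gametes do. Any difference in preparation behind this cannot be told apart from the treatment, or from the step from gamete to mock pronucleus.

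The first comparison checked that the windows carry the gametic difference. In the 2 sperm libraries H19 stood at 100% and 98.9%, Meg3 at 95.8% and 98.0%, and Rasgrf1 at 98.0% and 96.2%. In the 2 oocyte libraries H19 stood at 0% in both, Meg3 at 21.8% and 8.96%, and Rasgrf1 at 10.0% and 0%. All 3 windows were thus high in sperm and low in oocytes, with no overlap between the gametes. The 0% of H19 in oocytes rests on 28 and 72 calls, which allow up to 10.7% and 4.17% if calls are independent. Positions of a stretch share their reads, and the 28 calls came from 14 reads, so the true limits are wider. Mean differences were 99.5 points in H19, 81.5 in Meg3 and 92.1 in Rasgrf1, each with an exact two-sided permutation p of 0.333, the smallest that 2 libraries against 2 can give.

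The oocyte values above 0 came from a few positions. In Meg3, oocyte replicate 1 had 6 of 6 reads methylated at positions 110764923 and 110764928 and 0 of 6 at the neighbours 110764888 and 110764904. Oocyte replicate 2 had 12 of 32 reads methylated at position 110764947 and 0 of 32 at each of the 3 other positions of that stretch. In Rasgrf1, oocyte replicate 1 had 7 of 30 reads at position 89769488 and 10 of 21 at 89769489, the same CpG read on the other strand. These positions, like the others singled out in the text, were chosen after their values were seen.

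**Figure D1:**
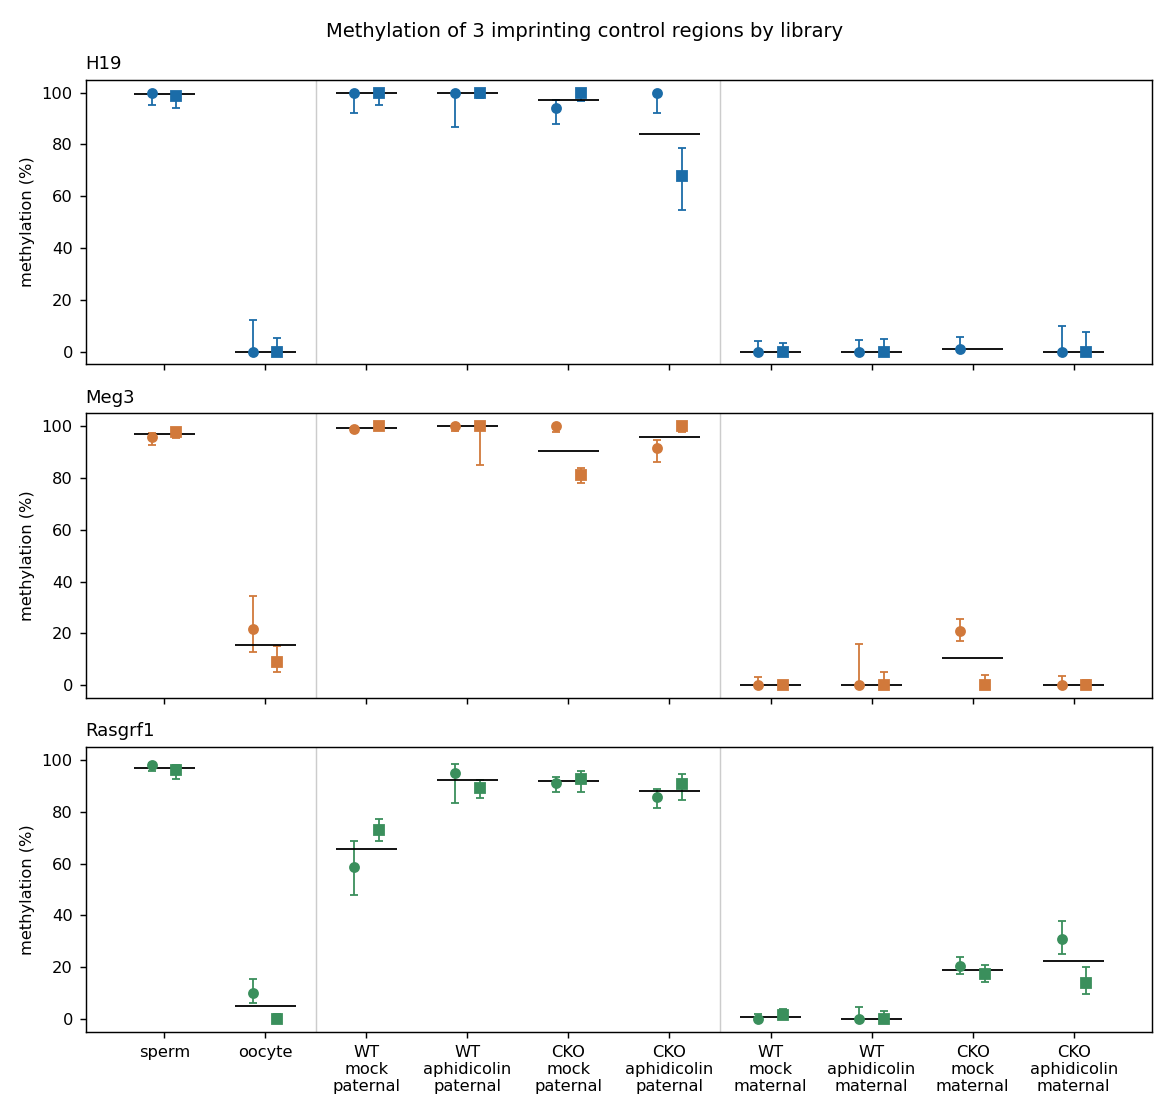
Methylation (%) of H19, Meg3 and Rasgrf1 (3 panels) in the 10 groups on the x axis, with replicate 1 as a circle and replicate 2 as a square, 95% Wilson intervals as bars and the group mean as a black line. H19 and Meg3 sit at 99.1% or more in the 4 WT paternal libraries, while Rasgrf1 sits at 58.5% and 73.1% in the WT mock paternal libraries and 89.3% and 95.0% with aphidicolin.

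In paternal pronuclei the question was how far each region moved from sperm by 12 hours. H19 stood at 100% in both WT mock paternal libraries, on 44 and 75 calls. Meg3 stood at 99.1% and 100%, on 433 and 316 calls. H19 overlapped with sperm, at a mean difference of 0.549 points (exact permutation p = 1, the only value that its ties at 100% allow). Meg3 lay slightly above sperm, by 2.64 points, with the 4 differences between single libraries from 1.09 to 4.20 (exact permutation p = 0.333, the smallest possible).

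Rasgrf1 was lower. It stood at 58.5% on 82 calls and 73.1% on 428 calls in the WT mock paternal libraries, or 65.8% ± 10.3 (SD, n = 2), against 97.1% ± 1.28 (SD, n = 2) in sperm. The difference was -31.2 points, the 4 differences between single libraries lay between -39.4 and -23.0, and the exact permutation p was 0.333, the smallest possible. In the 4 WT paternal libraries, mock and aphidicolin, Rasgrf1 lay below both H19 and Meg3 in 4 of 4, and over all 8 paternal pronuclear libraries below each of them in 7 of 8.

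The low Rasgrf1 values came mostly from stretch 4, the 2 CpG positions 89773115 and 89773153. WT mock paternal replicate 1 had 0 of 17 reads methylated there and 24 of 24 at both positions of stretch 3, the nearest other stretch. Replicate 2 had 24 of 55 at both positions of stretch 4. On stretches 1 and 2, which replicate 1 did not cover, replicate 2 had 25 of 44 and 44 of 44 reads and then 97 of 115 and 99 of 115. So within the window 1 stretch was at 0% in 1 library and 43.6% in the other, while the rest stood at 78.4% or more per stretch. Replicate 2 did not cover stretch 3, so stretch 4 was the only one read in both libraries. Without stretch 4 the difference from sperm was -5.89 points, against -60.6 without stretch 3. The first value joins stretch 3 of replicate 1 with stretches 1 and 2 of replicate 2, which share no position.

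Single positions were then set against the genome. A position was called lower where both WT mock paternal libraries lay below both sperm libraries. The group means also had to differ by at least 10 points. Over all positions tested 15.0% were called, and over positions methylated in sperm and not in oocytes (at least 75% in both sperm, at most 25% in both oocyte libraries) 50.9%. Of the members with 5 reads in these 4 libraries, 0 of 2 positions were called in H19, 0 of 10 in Meg3 and 2 of 2 in Rasgrf1, the last being both of stretch 4. Conversely, 11.2% of the sperm-specific positions stayed at 90% or more in both WT mock paternal libraries, a limit set after values were seen. In H19 2 of 2 positions did, in Meg3 10 of 10 and in Rasgrf1 0 of 2. Members were counted whether or not they were sperm-specific. Only 1 Meg3 position met the limits for sperm-specific positions, and it was not among the 10. The Meg3 counts can therefore be set only against shares over all positions, and no such share was taken for the 90% limit. Positions of a stretch share their reads, so the H19 count stands for 1 stretch, the Meg3 count for 3 and the Rasgrf1 count for 1.

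**Figure D2:**
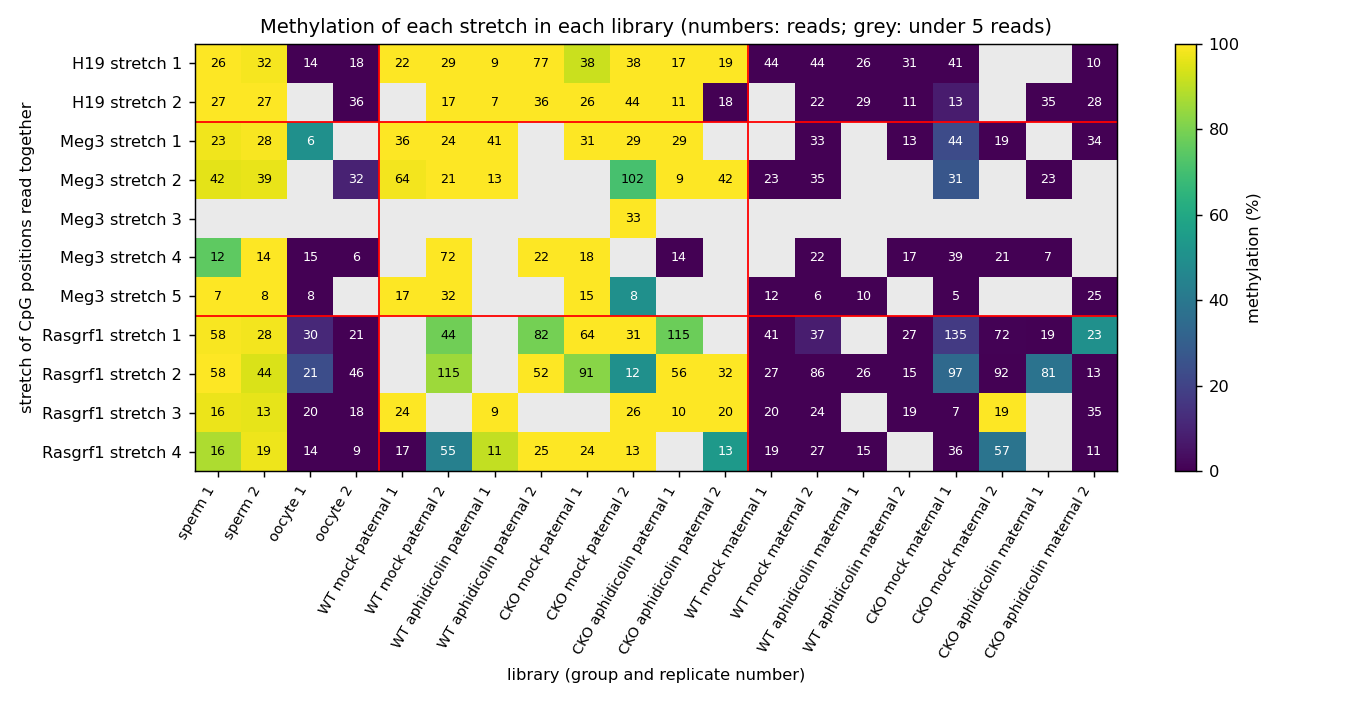
Methylation (%, colour) of the 11 stretches (rows) in the 20 libraries (columns), with the reads at the deepest position of the stretch in each cell and grey where fewer than 5 reads were present. Paternal pronuclei are mostly at 100% and maternal pronuclei mostly at 0%; stretch 4 of Rasgrf1 is at 0% and 43.6% in the 2 WT mock paternal libraries.

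Stretches in pronuclei were mostly read as all methylated or all unmethylated. Of 117 stretch values in the 16 pronuclear libraries, 94 (80.3%) were exactly 0% or 100%, against 7 of 20 in sperm and 12 of 16 in oocytes. Sperm-specific positions of the whole genome with at least 20 reads gave such values in similar shares, at 35.2% and 36.8% in sperm, 78.3% and 80.1% in oocytes and 69.6% to 91.8% in the 8 maternal libraries. In paternal pronuclei the genome-wide shares were 82.7% to 90.5% with aphidicolin and 21.0% to 72.0% in mock. In paternal pronuclei 43 of 59 values were 100% and 3 were 0%, and in maternal pronuclei 47 of 58 were 0% and 1 was 100%. The sperm libraries stood at 75% to 100% on the same stretches, with some reads unmethylated in 13 of 20 values. By region, 13 of 15 paternal values were 100% in H19, 17 of 21 in Meg3 and 13 of 23 in Rasgrf1.

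The paternal regions were next read beside other sequence methylated in sperm alone, in the same libraries. This sequence was 3879 tiles of 100 bp with at least 75% in both sperm and at most 25% in both oocyte libraries, with none from the 3 windows, whose tiles were not deep enough. The mean of these tiles was 95.5% and 95.6% in sperm, and 52.0% and 56.3% in the WT mock paternal libraries. In those WT mock libraries 24.8% and 13.1% of the tiles stood at 90% or more. With aphidicolin the tile means of the WT libraries were 91.5% and 93.6%. In the CKO paternal libraries the means were 60.8% and 67.4% in mock and 88.3% and 95.4% with aphidicolin.

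**Figure D3:**
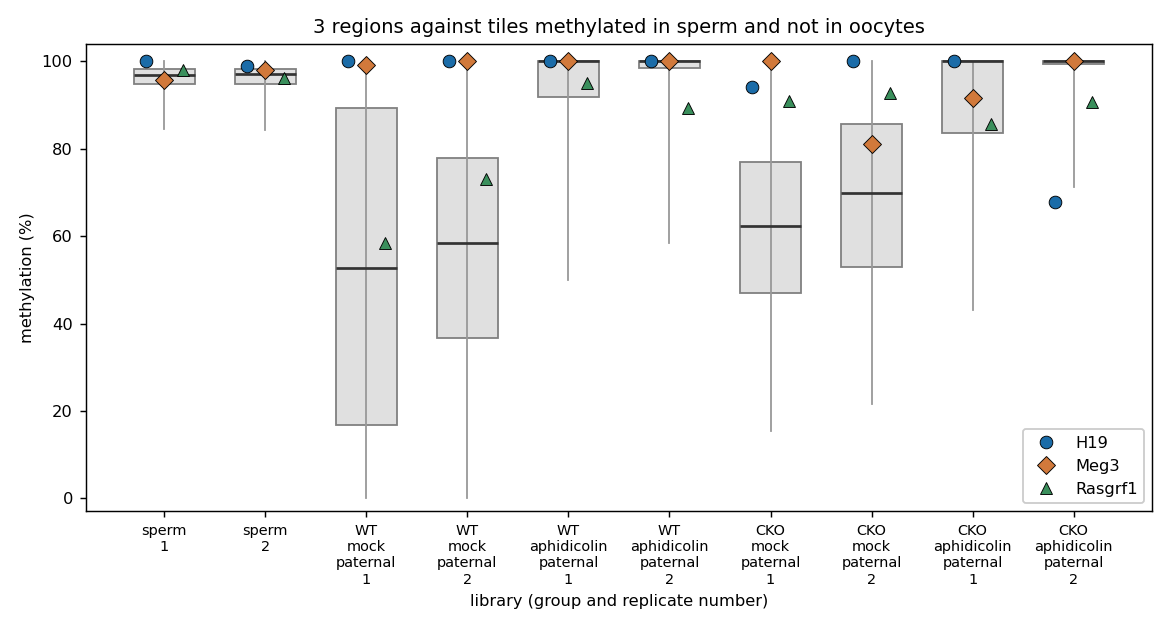
Methylation (%) of 3879 sperm-specific tiles in the sperm and paternal pronuclear libraries on the x axis (box, quartiles; line, median; whiskers, 5th to 95th percentile) with the 3 regions as coloured points. H19 and Meg3 stand at the top of the range in both WT mock paternal libraries, where the tile medians are 52.6% and 58.3%. In these libraries 20.5% and 7.76% of the tiles are also at 100%.

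In each of the 4 mock paternal libraries, WT and CKO, all 3 regions lay above the tile mean. The differences averaged 39.4 points in H19 (32.6 to 48.0), 35.9 in Meg3 (13.7 to 47.1) and 19.7 in Rasgrf1 (6.58 to 30.3). Each had an exact two-sided sign-flip permutation p of 0.125, the smallest that 4 libraries allow. Over all 8 paternal pronuclear libraries Meg3 was 20.8 points above the tiles, higher in 8 of 8 (exact sign-flip permutation p = 0.0078, the smallest that 8 libraries allow). Giving each Meg3 stretch equal weight gave 17.6 points (exact sign-flip permutation p = 0.102), and leaving out stretch 1 gave 17.8 (exact permutation p = 0.0859). Only 1 Meg3 position met the gamete limits used for the tiles. On that position, read in 4 of the 8 libraries, the excess was 0.256 points. H19 was 19.6 points above, higher in 7 of 8 (exact sign-flip permutation p = 0.0703). The 1 library below the tiles was CKO aphidicolin paternal replicate 2. Without that library H19 was 26.3 points above (exact permutation p = 0.0156). Leaving out the only contrary library fixes this p at its smallest possible value, so it adds no support. Rasgrf1 was 8.87 points above, higher in 5 of 8 (exact sign-flip permutation p = 0.148). These p-values are unadjusted, and 4 of the 42 tests of the 3 regions gave a p under 0.05.

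The surroundings of H19 and Meg3 were lower than the regions in the same mock libraries. Positions at 75% or more in both sperm libraries, within 100 kb of the H19 window and outside it, numbered 111. Sperm had 96.1% there in both replicates, and WT mock paternal pronuclei 38.6% and 42.7%, where H19 itself was at 100%. Around Meg3, 137 such positions stood at 97.0% and 96.5% in sperm and 54.0% and 57.5% in WT mock paternal pronuclei, against 99.1% and 100% in the window.

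Around Rasgrf1, 54 such positions stood at 96.9% and 97.6% in sperm and at 65.9% and 57.5% in the WT mock paternal libraries. The window itself was at 58.5% and 73.1%, below its surroundings in replicate 1 and above them in replicate 2. With the surroundings in place of the tiles, the 4 mock paternal libraries gave 47.4 points for H19, 33.7 for Meg3 (each exact sign-flip permutation p = 0.125) and 16.2 for Rasgrf1 (higher in 3 of 4, exact permutation p = 0.25).

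**Figure D4:**
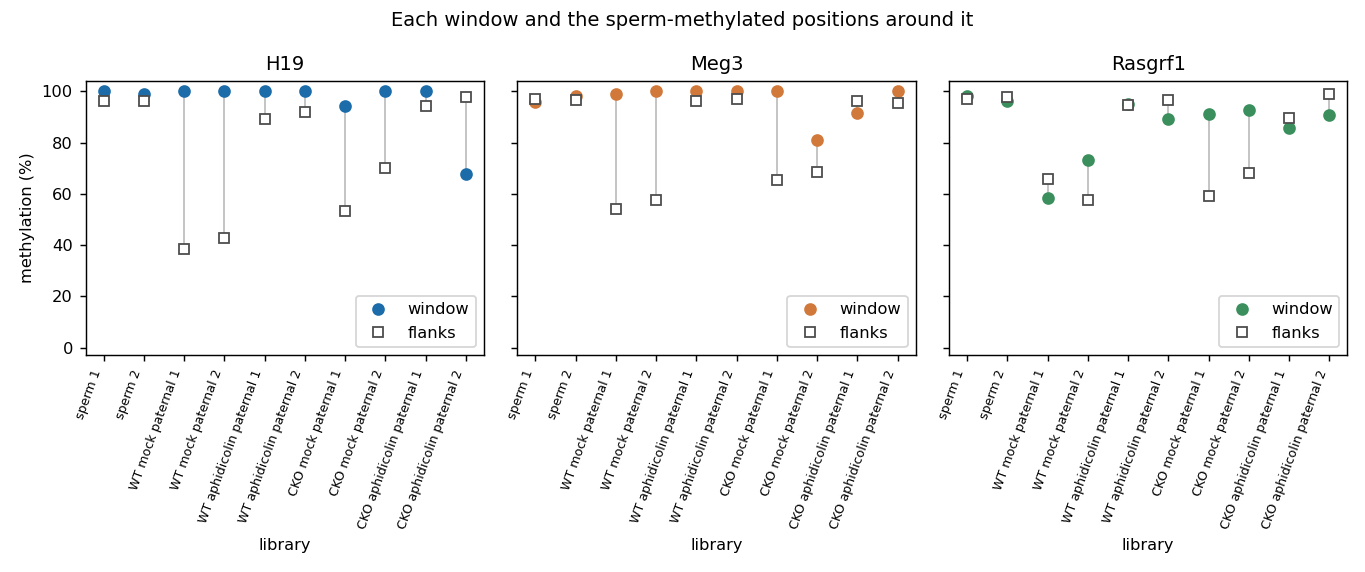
Methylation (%) of each window (filled circles) and of the sperm-methylated positions within 100 kb outside it (open squares) in the sperm and paternal pronuclear libraries on the x axis, with a line joining the pair. In the WT mock libraries H19 stands at 100% over surroundings at 38.6% and 42.7%, and Rasgrf1 crosses its surroundings between the replicates.

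Aphidicolin was compared with mock in paternal pronuclei to follow the regions when replication was blocked. In WT, H19 stood at 100% in both aphidicolin libraries (25 and 190 calls) and Meg3 at 100% in both (216 and 22 calls). Both therefore overlapped with mock, with differences of 0 and 0.462 points (exact permutation p = 1 for each). Ties at 100% allowed no smaller p in either region. Rasgrf1 stood at 95.0% and 89.3% with aphidicolin (40 and 318 calls) and at 58.5% and 73.1% without. The mean was 92.2% ± 4.02 against 65.8% ± 10.3 (SD, n = 2 each). This is 26.3 points higher, with single differences from 16.2 to 36.5 and an exact permutation p of 0.333, the smallest possible.

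Stretch 4 of Rasgrf1, the only one read in all 4 of these libraries, again differed. With aphidicolin, WT replicate 1 had 11 of 11 and 9 of 11 reads methylated at its 2 positions and replicate 2 had 25 of 25 at both. Without this stretch the difference between aphidicolin and mock was 1.99 points, from different stretches in replicates 1 and 2. Positions called lower in both mock than in both aphidicolin libraries were 8.30% of all tested and 45.7% of sperm-specific ones. In Rasgrf1 2 of 2 tested positions were called, in H19 0 of 2, and in Meg3 no position was deep enough in these 4 libraries.

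In CKO paternal pronuclei the aphidicolin values were below mock in H19 and Rasgrf1 on average and overlapped with it in H19 and Meg3. H19 stood at 100% and 67.9% with aphidicolin and 94.1% and 100% without, a difference of -13.1 points. Meg3 stood at 91.6% and 100% against 100% and 81.1%, a difference of 5.23 points. Rasgrf1 stood at 85.6% and 90.8% against 91.1% and 92.7%, a difference of -3.67 points with single differences from -7.05 to -0.292 (exact permutation p = 0.333). Over both genotypes as strata the differences were -6.57, 2.85 and 11.3 points for H19, Meg3 and Rasgrf1, with exact permutation p of 1, 0.667 and 0.333.

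The values of 67.9%, 91.6% and 81.1% among the CKO paternal libraries came from 1 or 2 stretches each. In aphidicolin replicate 2, H19 had 0 of 18 reads methylated at position 149767292 and 19 of 19 at both positions of stretch 1. In aphidicolin replicate 1, Meg3 had 0 of 14 reads at position 110766835 and every read methylated on its 2 other covered stretches. In mock replicate 2, stretch 2 of Meg3 had 102 of 102 reads at 110764905, 63 of 102 at 110764924, 76 of 102 at 110764929 and 48 of 102 at 110764947. The opposite strand of the first 3 of these CpGs, read on stretch 1, was methylated in 29 of 29 reads. Stretch 5 of that library had 8 of 8 reads at 110767056 and 0 of 8 at 110767080. In Rasgrf1, CKO aphidicolin replicate 1 had 89 of 115 reads methylated at both positions of stretch 1, and replicate 2 had 13 of 13 and 1 of 13 at those of stretch 4. CKO mock replicate 2 had 0 of 12 and 12 of 12 at those of stretch 2, so neighbouring CpGs read together stood at opposite values there.

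Oocyte-derived signal was looked at beside these values, on 2248 oocyte-specific tiles (the same limits with the gametes exchanged). Their mean was 11.5% and 4.94% in the paternal CKO libraries without drug and 10.7% and 5.12% in those with it, against 3.41% to 5.18% in the 4 WT paternal libraries. The 4 maternally methylated control regions read as a mirror (Peg3, Snrpn, Kcnq1ot1 and Igf2r) stood at 0% to 2.27% in the WT paternal libraries. In CKO aphidicolin paternal replicate 1, the library whose Meg3 stretch 4 was unmethylated, Peg3 stood at 31.3% and Snrpn at 3.55%, while Kcnq1ot1 had 0 of 1018 calls methylated and Igf2r 0 of 299. The part of such signal in the paternal values was not tested.

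Loss of Tet3 was compared with WT in mock paternal pronuclei, where oxidation and replication both could act. Rasgrf1 stood at 91.1% and 92.7% in CKO and 58.5% and 73.1% in WT. The mean was 91.9% ± 1.15 against 65.8% ± 10.3 (SD, n = 2 each), or 26.0 points higher, with single differences from 17.9 to 34.1 (exact permutation p = 0.333). At stretch 4 the CKO mock libraries had 24 of 24 and 13 of 13 reads methylated at both positions. Without that stretch the difference was -1.18 points, with no stretch shared by the WT mock libraries. Positions called lower in both WT than in both CKO mock libraries were 6.95% of all tested and 21.6% of sperm-specific ones. They were 2 of 2 tested in Rasgrf1, 0 of 2 in H19 and 0 of 6 in Meg3.

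H19 and Meg3 were, on average, below WT in CKO mock paternal pronuclei, at 97.1% ± 4.16 and 90.6% ± 13.4 (SD, n = 2 each). The groups overlapped at these differences of -2.94 and -8.99 points (exact permutation p = 1 and p = 1). Ties at 100% left no smaller p for H19, so its p was fixed in advance. The Meg3 difference is 0.462 points without CKO mock paternal replicate 2. With aphidicolin, CKO minus WT was -16.1 points in H19, -4.22 in Meg3 and -3.95 in Rasgrf1, and the groups overlapped in each. Over both treatments the differences were -9.51, -6.60 and 11.0 points, with exact permutation p of 0.5, 0.5 and 0.278. The first p is the smallest that the ties in H19 allow.

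The maternal pronuclei carry the copies that arrive unmethylated. In the 4 WT maternal libraries H19 and Meg3 stood at 0%, and Rasgrf1 at 0% in 3 and at 1.72% in mock replicate 2. The calls behind these zeros allow up to 2.73% to 4.11% in H19, 0.980% to 15.0% in Meg3 and 1.40% to 3.66% in Rasgrf1. These limits take calls as independent, and are wider where positions share reads. The 15.0% rests on 20 calls from 10 reads. Against oocytes the WT mock difference was 0 points in H19, -15.4 in Meg3 and -4.14 in Rasgrf1, and the last is 0.862 points without oocyte replicate 1.

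Paternal and maternal pronuclei of the same genotype and treatment differed in all 3 regions. Paternal minus maternal was 95.0 points in H19 over the 7 maternal libraries that read it, with single differences from 67.9 to 100. It was 93.9 points in Meg3 (60.2 to 100) and 74.0 points in Rasgrf1 (54.6 to 95.0). The exact stratified permutation p was 0.00154 for each of H19, Meg3 and Rasgrf1, in each case the smallest that the design allows. On the 1 Meg3 position with a clear gametic difference in all 4 gamete libraries, 110766835, the difference was 75.0 points (exact permutation p = 0.0833). The p-values take paternal and maternal libraries as independent and would be too small if they shared zygotes.

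Rasgrf1 stood higher in CKO than in WT maternal pronuclei. The CKO mock libraries read 20.4% and 17.3%, and the CKO libraries given aphidicolin 31.0% and 14.0%, against 0% to 1.72% in WT. The 4 CKO libraries lay above the 4 WT libraries, with a difference of 20.2 points over both treatments, 8 of 8 single differences from 14.0 to 31.0, and an exact stratified permutation p of 0.0556. No smaller p is possible over 2 strata. H19 and Meg3 differed by 0.526 and 5.23 points, the latter from CKO mock maternal replicate 1 alone, at 20.9%, with the other 3 CKO libraries at 0%. H19 was at 1.05% in that library, at 0% in both CKO aphidicolin libraries, and unread in CKO mock maternal replicate 2.

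**Figure D5:**
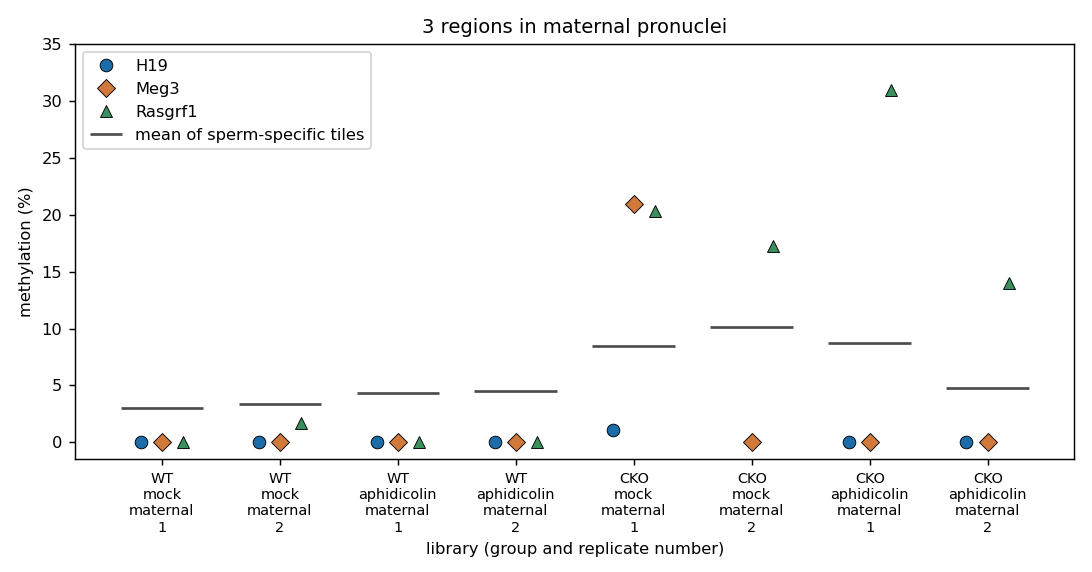
Methylation (%) of the 3 regions (points) and mean of 11004 sperm-specific tiles (horizontal lines) in the 8 maternal pronuclear libraries on the x axis. Rasgrf1 lies between 14.0% and 31.0% in the 4 CKO libraries and at 0% to 1.72% in the 4 WT libraries, and the tile means are 3.05% to 4.53% in WT and 4.74% to 10.2% in CKO.

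The Rasgrf1 stretches with methylated reads varied between the CKO maternal libraries, with some shared. Mock replicate 1 had 23 of 135 reads at both positions of stretch 1 and 33 of 97 at both of stretch 2. Mock replicate 2 had 19 of 19 on stretch 3 and 22 of 57 on stretch 4, with 0 of 92 on stretch 2. Aphidicolin replicate 1 had 31 of 81 on stretch 2 and 0 of 19 on stretch 1. Aphidicolin replicate 2 had 23 of 23 reads at position 89769450 and 0 of 23 at 89769488 of the same stretch. By single position, 3.47% of all tested and 6.67% of sperm-specific positions were called lower in both WT than in both CKO mock maternal libraries, by the rule used above. In Rasgrf1 0 of 8 positions were, and in H19 and Meg3 none was deep enough to be tested.

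Signal of paternal kind was read in the same maternal libraries. The mean of 11004 sperm-specific tiles was 8.48% and 10.2% in the mock libraries of CKO and 8.77% and 4.74% in those given aphidicolin, against 3.05% to 4.53% in WT. Oocyte-specific tiles averaged 77.8% and 80.4% in CKO mock and 83.1% and 85.6% in WT mock. With aphidicolin they averaged 86.1% and 93.1% in CKO and 93.0% and 93.8% in WT. The 4 mirror regions stood at 57.0% to 100% in CKO and 82.5% to 100% in WT. CKO mock replicate 1 had Peg3 at 65.9%, Snrpn at 84.0%, Kcnq1ot1 at 95.2% and Igf2r at 61.1%. CKO aphidicolin replicate 1 had them at 96.6%, 57.0%, 99.9% and 92.3% in that order. Calls on chromosome Y, which an oocyte lacks, were 0.00297% and 0.000296% of all calls in the CKO mock maternal libraries. With aphidicolin the CKO maternal libraries had 0.00163% and 9.3e-05%. WT maternal libraries had 6.77e-05% to 0.000692%, against 0.0111% and 0.0117% in sperm. Both CKO replicates 1 were above the WT range for chromosome Y, with Rasgrf1 at 20.4% in mock and 31.0% with aphidicolin. Both CKO replicates 2 were within that range, with Rasgrf1 at 17.3% and 14.0%. The lowest CKO tile mean, 4.74%, was in the library with the lowest CKO Rasgrf1, 14.0%. The highest, 10.2%, was in the library with Rasgrf1 at 17.3%. The part of paternal DNA in the CKO maternal value of Rasgrf1 was not tested.

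Aphidicolin minus mock in maternal pronuclei, over both genotypes, was -0.526 points in H19, -5.23 in Meg3 and 1.41 in Rasgrf1, and treated and mock libraries overlapped within CKO for Meg3 and Rasgrf1. In the WT maternal libraries the largest single value of the 3 regions in either treatment was the 1.72% of Rasgrf1, from 6 of 37 reads at position 89769488.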

How the data were processed

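The deposited files give raw counts of methylated and unmethylated calls at each CpG position, and the percent methylated that the authors derived from them. Per the submitters' processing notes the authors used Trim Galore and Bismark 0.10.1 with mm9. Read filters and the handling of duplicates were not given in the sources used here.

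Calls were pooled per window and library over positions with at least 5 reads. Intervals are Wilson at 95%, and a zero allows 3 counts of the total. Both take calls as independent. Group means were compared by exact two-sided permutation, within strata where several groups entered, and regions with tiles by exact sign flips over libraries (Python 3.11.15, numpy 2.4.6, pandas 2.3.3, scipy 1.17.1), tested on simulated data. Tiles were 100 bp with at least 2 positions and 10 calls in every one of a parent's 10 libraries (gamete included).

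The regions and lists were chosen with earlier results of these data known. The planned model over 61904 paternal and 73688 maternal tiles was not run, since 0 tiles of the 3 windows entered. The rule for naming positions took the 3 lowest and 3 highest of those with 5 reads in all 20 libraries, and 0 met it. Blocks of positions closer than 200 bp repeat the stretches described. Stretches, defined after values were seen, join positions whose depths differ by at most 1 read in every library. No sequence is printed, since no mm9 genome was used here.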

Additional observations from a re-analysis of the deposited data

Results flagged for a closer look

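Aphidicolin minus mock at Rasgrf1 differed in sign between the genotypes in paternal pronuclei. It was 26.3 points in WT, where both aphidicolin libraries lay above both mock libraries, and -3.67 points in CKO, where both lay below. The difference between the genotypes was not tested. Without stretch 4 the values were 1.99 points in WT and 2.33 in CKO.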

How the results depend on the processing

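Of 664 alternatives to the 42 comparisons, 628 neither turned the sign nor crossed 0.05 in the exact permutation test. A fall to 0 counted as kept. Only paternal minus maternal and the excess over 8 libraries' tiles could fall under 0.05, so other calls were fixed. Where values were not kept, the cause was not tested beyond the stretch or library left out. Stretches with equal weight, the omission of single stretches and the surroundings in place of tiles were chosen after seeing the data. On positions high in sperm and low in oocytes, and equally without stretch 2, H19 aphidicolin minus mock was 3.95 points in CKO and 1.97 over both genotypes, and H19 minus tiles over 8 libraries was 23.4 (exact permutation p = 0.00781). On such positions Meg3 aphidicolin minus mock was -100 in CKO and -50.0 over both genotypes, its paternal minus maternal difference 75.0 (exact permutation p = 0.0833) and its excess over tiles 0.256 (exact permutation p = 1). With equal stretches Meg3 aphidicolin minus mock was -6.77 in CKO and -3.25 over both, without stretch 1 -2.58 and -0.944, and without stretch 2 -9.25 and -4.63. Its excess over tiles was 17.6 with equal stretches and 17.8 without stretch 1. Rasgrf1 aphidicolin minus mock in CKO paternal pronuclei was 8.22 without stretch 1 and 2.33 without stretch 4. In maternal pronuclei it was -4.49 with positions or stretches of equal weight, -2.43 without stretch 1 and -6.93 without stretch 2. Rasgrf1 CKO minus WT without stretch 4 was -1.18 in mock paternal and -1.01 over both treatments. Its excess over tiles was 10.6 without stretch 1 (exact permutation p = 0.0234) and -0.00536 without stretch 3.

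Leaving out 1 library at a time, H19 aphidicolin minus mock ranged from -29.2 to 2.94 in CKO paternal and -14.6 to 1.47 over both genotypes, and its excess over 8 libraries' tiles from 15.5 to 26.3. For Meg3, aphidicolin minus mock ranged from -4.22 to 14.7 in CKO paternal and -1.88 to 7.57 over both genotypes, and CKO minus WT in mock paternal from -18.4 to 0.462. Rasgrf1 ranged from -9.14 to 0.862 for WT mock maternal minus oocyte and from -2.83 to 5.66 for aphidicolin minus mock in maternal pronuclei. The libraries whose omission turned a sign or a call were CKO aphidicolin paternal replicate 2 for H19, CKO mock paternal replicate 2 for Meg3, and oocyte replicate 1 and CKO aphidicolin maternal replicate 1 for Rasgrf1.

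Libraries of different groups share replicate numbers. Over sperm-specific tiles the differences between replicates 1 and 2 correlated at -0.0171 to 0.0173 in 12 pairs of groups of the same parent. Pairing between paternal and maternal groups was not examined in this way. With the replicate block, paternal minus maternal was 94.2 points in H19 (exact permutation p = 0.0156), 93.9 in Meg3 and 74.0 in Rasgrf1 (exact permutation p = 0.00781 for both), and CKO minus WT in maternal Rasgrf1 was 20.2 (exact permutation p = 0.125, the smallest under the block). The block changed none of the 36 calls where it could be fitted, but only paternal minus maternal could fall under 0.05 with it.

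Positions with 5 reads in all 20 libraries gave no value, as there were 0. The tile model's alternatives, including 500-bp tiles, were not run. Depth limits H19 and Meg3 most, at 25 and 20 calls in their thinnest libraries.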
